A study of Mus musculus with 4 samples.

Results

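The 10 fibrous and bone collagen chains described here are *Col1a1*, *Col1a2*, *Col3a1*, *Col5a1*, *Col5a2*, *Col6a1*, *Col6a2*, *Col6a3*, *Col12a1* and *Col14a1*. They were taken by gene symbol from the expression tables, which list 55141 genes in TPM (the reads of a gene over 1 length for that gene, brought to the same total in each library). All 10 were found. Of these, 9 had at least 100 reads summed over the 4 libraries, as did 6822 genes in all; *Col14a1* did not and is given by its reads.

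Chondrocytes were isolated with collagenase from the femoral head cartilage of mice at 3 weeks of age (strain C57BL/6 per the labels, written C57BL6/J for the mimic library) and cultured, and 1 library was made for each of 4 groups. The WT library is labelled wild type, and the study's results also name wild-type chondrocytes for its RNA and protein comparison. Its methods name Control chondrocytes for the same work and describe the Control mice as floxed. The Cart-miR-23clus KO library came from mice with the Col2a1-cre transgene, which drives Cre in cartilage from the *Col2a1* promoter, and with flox/flox alleles of both miR-23a/b clusters, each of which encodes a miR-23, a miR-27 and a miR-24. The miR-26a KO library lacks miR-26a, and the miR-26a KO + mimic library came from such cells transfected with a double-stranded miR-26a mimic; whether the other miR-26a KO culture received a control oligonucleotide is not given in the labels. Reads assigned to genes numbered 1505805 in WT, 1336496 for Cart-miR-23clus KO, 1369924 for miR-26a KO and 1449246 with the mimic. A count of 0 therefore allows up to 0.000199% to 0.000224% of the reads of a library (3 reads). The mimic total holds only reads recovered from TPM values. The other totals also hold reads on genes without TPM values (0.480% to 0.633% of them), so shares of reads in the mimic library have a slightly different base. These libraries read the 3′ ends of mRNAs and not mature miRNAs, so that the deletions themselves could not be checked. With 1 library per group, no difference below has a replicate check and no p-value was computed. The intervals given (exact Clopper-Pearson, 95%, from the reads) cover counting error only, and the spread between cultures or mice is not in them.

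Collagens are triple helices of 3 chains. Type I collagen, built from the chains of *Col1a1* and *Col1a2*, is the main fibril of bone, tendon and skin, whereas the fibril of cartilage is type II collagen. Type III collagen (*Col3a1*) is a fibril of stretchable tissues and of early repair, and type V collagen (*Col5a1*, *Col5a2*) lies inside type I fibrils and sets their diameter. Type VI collagen (*Col6a1*, *Col6a2*, *Col6a3*) forms beaded microfilaments around cells, and in cartilage it marks the pericellular matrix of the chondrocyte. Type XII and type XIV collagen (*Col12a1*, *Col14a1*) coat the surface of fibrils without forming fibrils themselves.

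MiRNAs whose genes were deleted, and the bases in the collagen mRNAs that pair with them, are shown first because the genotypes remove, and the mimic supplies, these RNAs. An miRNA lowers mRNAs mainly through its seed, bases 2 to 8, in capitals here. The mature sequences are from RefSeq, and miR-27a and miR-27b have the same seed; miR-23b, of the other deleted cluster, is not shown.
mmu-miR-23a-3p: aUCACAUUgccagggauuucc
mmu-miR-27a-3p: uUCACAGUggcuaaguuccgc
mmu-miR-27b-3p: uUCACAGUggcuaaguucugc
mmu-miR-24-3p: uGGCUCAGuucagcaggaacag
mmu-miR-26a-5p: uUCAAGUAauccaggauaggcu
The sense strand of the transfected mimic was the same 22 bases as mature mmu-miR-26a-5p.

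The annotated 3′ UTR of 1 transcript per gene was searched on the sense strand for the 7 bases that pair with each seed (AATGTGA for miR-23, ACTGTGA for miR-27, CTGAGCC for miR-24 and TACTTGA for miR-26a). The miR-23 bases were found in *Col5a2*, *Col6a1* and *Col12a1*, 3 of 10 members beside 17.3% of the 6588 genes searched. The miR-27 bases were found in *Col5a2* and *Col6a2*, 2 of 10 beside 18.3%. The miR-24 bases were found in *Col5a1* and *Col6a2*, 2 of 10 beside 19.4%. The miR-26a bases were found in *Col1a2* alone, 1 of 10 beside 12.3%. This last site is also the only match followed by an A, an 8-base form held by 5.34% of the genes. *Col1a1*, *Col3a1*, *Col6a3* and *Col14a1* held none of these letters. The 8 sites are given below with the paired bases in capitals, each within 1 exon of the 3′ UTR.
Col1a2, miR-26a, chr6:4541191-4541216, plus strand: agtatttcagaTACTTGAagaatatg
Col5a1, miR-24, chr2:28037017-28037037, plus strand: gagctgCTGAGCCcaccggtc
Col5a2, miR-23, chr1:45375156-45375181, minus strand: cactcaaataaAATGTGAggattgga
Col5a2, miR-27, chr1:45376016-45376041, minus strand: ccaccacaagaACTGTGActgtttaa
Col6a1, miR-23, chr10:76709455-76709480, minus strand: caggaataggaAATGTGAcccaactg
Col6a2, miR-27, chr10:76598039-76598064, minus strand: ttgtggtaataACTGTGAgggggcca
Col6a2, miR-24, chr10:76598697-76598722, minus strand: cctggtcctgtCTGAGCCccatgttg
Col12a1, miR-23, chr9:79600755-79600780, minus strand: tacacgatctgAATGTGAtcctgtat
Coordinates are on GRCm38, the build of the deposited files, with transcripts from GENCODE. A match is a description of letters and not a measured site.

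The 10 chains together held 4.42% of the reads in WT, 1.54% in Cart-miR-23clus KO, 2.76% for miR-26a KO and 2.94% with the mimic. Most of these reads were type I collagen, which held 3.85% of all reads in WT and 1.08% in Cart-miR-23clus KO, with 2.18% and 2.29% in the miR-26a KO and mimic libraries. The type I share of the members' reads was 87.1% in WT and 70.3% in Cart-miR-23clus KO, and 79.0% and 77.8% in the other two. The other 8 chains held 0.572%, 0.458%, 0.580% and 0.652% of the reads in the same order, so that the libraries differed mostly in type I collagen.

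**Figure D1:**
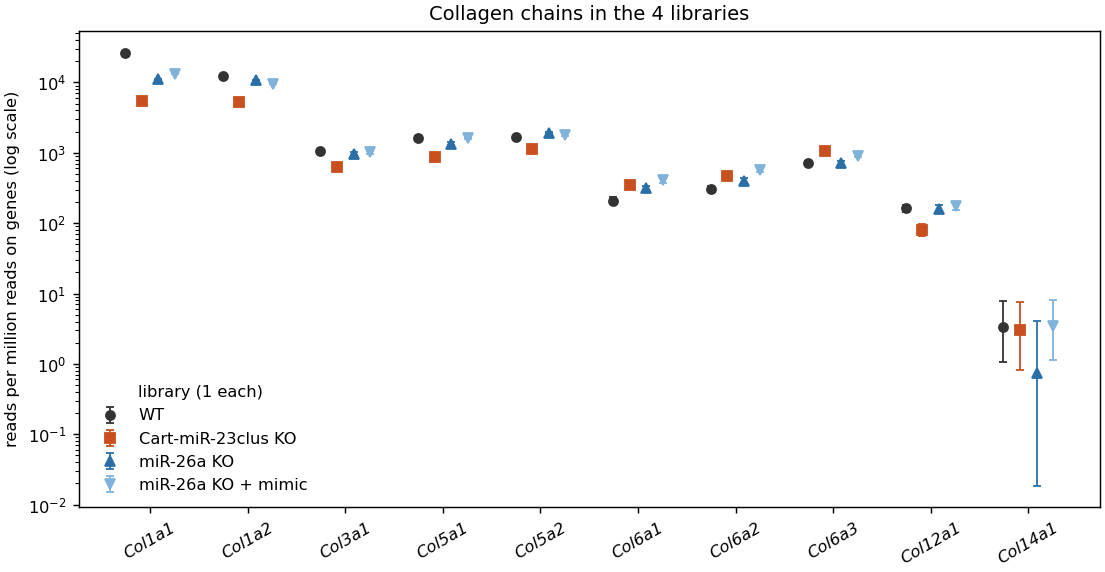
Reads of each chain relative to all reads on genes (log scale) of the 10 collagen chains in the 4 libraries, 1 point per library, with exact 95% intervals for counting error. The Cart-miR-23clus KO library is the lowest of the 4 for both type I chains and is above WT for the 3 type VI chains, while *Col14a1* rests on 1 to 5 reads per library.

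The order of the chains depended on the scale. By reads, *Col1a1* was the highest member in every library and *Col1a2* the next, and *Col1a1* ranked 1 among all genes in WT, 11 in Cart-miR-23clus KO, 6 for miR-26a KO and 5 with the mimic. By deposited TPM, *Col1a2* stood above *Col1a1* in every library, with 21110 TPM against 6328 in WT. The deposited TPM of *Col1a2* corresponds to a gene length of 850 bases, that of a short annotated transcript, where its longest is 5348 bases; for *Col1a1* the length is that of its longest transcript, 5930 bases. *Col3a1* (3159 of 5564 bases), *Col6a2* (3949 of 4912), *Col6a3* (9001 of 10106) and *Col12a1* (1784 of 11511) also had a length below that of their longest transcript, and the other 5 members had its full length. With reads per kilobase of the longest transcript, *Col1a1* was again above *Col1a2* in WT (4390 against 2328, in reads per kilobase per 1000000 reads) and with the mimic (2244 against 1789), but *Col1a2* was above *Col1a1* for Cart-miR-23clus KO (993 against 931) and for miR-26a KO (2003 against 1868). Below type I, *Col5a2*, *Col5a1* and *Col3a1* followed in WT on that scale (250, 193 and 188), the last pair with overlapping intervals, then the type VI chains and *Col12a1*. A ratio of 1 gene between libraries does not depend on its length.

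The first comparison, Cart-miR-23clus KO with WT, asks which chains differ when the miR-23a/b clusters are deleted in cartilage. Type I, III, V and XII chains were lower and the type VI chains higher. Of 9 members, 3 had a TPM ratio below 0.5, the fold used throughout, beside 2.49% of all genes tested; 0 of 9 had a ratio above 2, beside 2.81%. The median log2 ratio of the members was -0.77, where that of all 6822 genes was -0.02. All 9 counting intervals lay off 1, 6 below it, beside 14.4% of all genes, and 3 above it, beside 13.7%; such intervals are narrow for genes with many reads.

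*Col1a1* (chr11:94936224-94953042, plus strand), the chain present in 2 copies in each type I molecule, had 39203 reads in WT, 7378 in Cart-miR-23clus KO, 15172 for miR-26a KO and 19286 with the mimic. WT was the highest library and Cart-miR-23clus KO the lowest. In TPM, the latter library was at 0.207 of WT (0.202 to 0.212), and 23 of the 6822 genes had a lower one. *Col1a2* (chr6:4504814-4541544, plus strand), the partner chain, had 18746, 7096, 14673 and 13865 reads in the same order of libraries. Cart-miR-23clus KO was again the lowest, with the other 3 libraries closer together than for *Col1a1*. Its ratio to WT was 0.417 (0.405 to 0.428), and 92 genes had a lower one.

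*Col3a1* (chr1:45311538-45349706, plus strand) had 1578 reads in WT, 843 in Cart-miR-23clus KO, 1335 for miR-26a KO and 1471 with the mimic, and only the Cart-miR-23clus KO library stood apart (ratio to WT 0.588, 0.540 to 0.640). *Col5a1* (chr2:27886425-28039514, plus strand) had 2443, 1148, 1841 and 2362 reads, with a ratio of 0.517 (0.482 to 0.555) whose interval crosses the fold of 2. *Col5a2* (chr1:45374321-45503282, minus strand) had 2496, 1505, 2613 and 2627 reads, and its ratio of 0.664 (0.622 to 0.708) was the closest to 1 of the fibril-forming members. In all 3 genes Cart-miR-23clus KO was the lowest of the 4 libraries.

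*Col6a1* (chr10:76708792-76726168, minus strand) had 314 reads in WT, 460 in Cart-miR-23clus KO, 427 for miR-26a KO and 594 with the mimic. *Col6a2* (chr10:76595762-76623630, minus strand), its neighbour on the same chromosome and strand, had 465, 624, 544 and 823 reads. *Col6a3* (chr1:90765923-90843971, minus strand), the largest type VI chain, had 1068, 1426, 968 and 1313 reads. The Cart-miR-23clus KO library was above WT in all 3, with TPM ratios of 1.61 (1.39 to 1.87), 1.48 (1.31 to 1.67) and 1.47 (1.36 to 1.59). These ratios lay well inside the fold of 2, and 450, 676 and 695 of the 6822 genes had a higher one.

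*Col12a1* (chr9:79598991-79718831, minus strand) had 244 reads in WT, 106 in Cart-miR-23clus KO, 217 for miR-26a KO and 255 with the mimic. Only the Cart-miR-23clus KO library was low, with a ratio to WT of 0.478 (0.377 to 0.603), so that counting error alone leaves it on either side of the fold of 2. *Col14a1* (chr15:55307750-55520803, plus strand) had 5, 4, 1 and 5 reads, and no difference was detectable at this depth (ratio of Cart-miR-23clus KO to WT 0.881, 0.175 to 4.09).

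**Figure D2:**
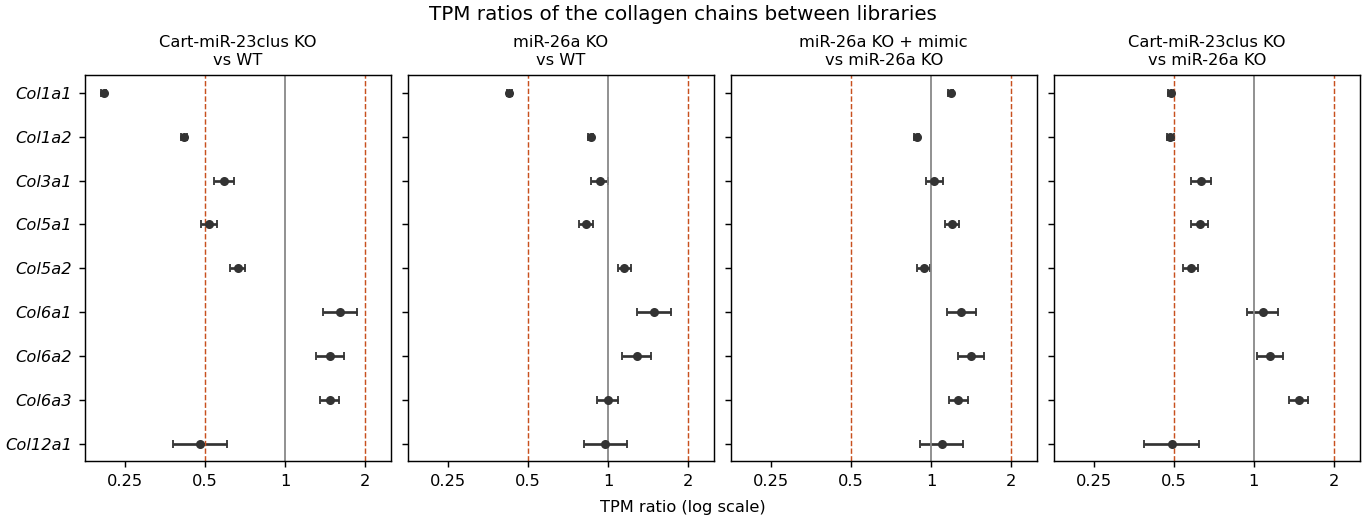
TPM ratios (log scale) of the 9 members with at least 100 reads in the 4 comparisons, each point a ratio of 2 libraries and each bar the exact 95% interval for counting error; the grey line is a ratio of 1 and the dashed lines are 0.5 and 2. In Cart-miR-23clus KO against WT the fibril-forming chains and *Col12a1* lie between 0.207 and 0.664 and the type VI chains between 1.47 and 1.61.

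The same question was asked of miR-26a with the miR-26a KO and WT libraries. *Col1a1* was low and the rest lay near 1 or above it. Of 9 members, 1 had a ratio below 0.5, beside 1.44% of the genes tested, and 0 had one above 2, beside 2.43%. The median log2 ratio was -0.03 for the members and 0.04 for all genes. *Col1a1* had a ratio of 0.425 (0.417 to 0.433), with 52 genes lower, whereas *Col1a2*, which holds the miR-26a letters, had 0.860 (0.841 to 0.878). *Col5a1* was below 1 (0.828, 0.779 to 0.880) and *Col5a2* above it (1.15, 1.09 to 1.22). *Col6a1* was higher (1.49, 1.29 to 1.73), as was *Col6a2* (1.28, 1.13 to 1.46). The intervals of *Col3a1* (0.929), *Col6a3* (0.995) and *Col12a1* (0.977) included 1. Both knockout comparisons share the WT library, so their values stand side by side and are not independent.

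Adding the mimic to miR-26a KO cells asks whether the chains move when miR-26a is supplied. No member passed the fold in either direction, beside 0.528% of genes above 2 and 0.381% below 0.5. The median log2 ratio was 0.25 for the members and -0.003 for all genes. *Col1a1* was higher with the mimic (1.19, 1.16 to 1.21) and *Col1a2* lower (0.883, 0.863 to 0.904). *Col6a2* had the highest ratio of the 9 (1.41, 1.27 to 1.58), followed by *Col6a1* (1.30, 1.15 to 1.48) and *Col6a3* (1.27, 1.17 to 1.38). *Col5a1* was 1.20 (1.13 to 1.27) and *Col5a2* 0.939 (0.889 to 0.992). The intervals of *Col3a1* (1.03) and *Col12a1* (1.10) included 1. *Col6a1* and *Col6a2* were above WT in miR-26a KO and higher still with the mimic.

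The knockouts were also compared with each other. Cart-miR-23clus KO was below miR-26a KO in the type I, III, V and XII chains; its library is also the one compared with WT above. The ratio was 0.488 (0.474 to 0.501) for *Col1a1*, 0.485 (0.471 to 0.499) for *Col1a2* and 0.490 (0.384 to 0.621) for *Col12a1*, so that 3 of 9 were below 0.5, beside 2.15% of genes; 0 of 9 were above 2, beside 1.83%. These 3 ratios sit at the limit, and by TMM factors or DESeq2 size factors 0 of 9 passed it. *Col3a1* (0.633), *Col5a1* (0.625) and *Col5a2* (0.577) lay nearer to 1. *Col6a3* was higher in Cart-miR-23clus KO (1.48, 1.36 to 1.60), while *Col6a2* (1.15, 1.02 to 1.29) and *Col6a1* (1.08, 0.945 to 1.23) were close in both knockouts. The median log2 ratio was -0.68 for the members and -0.06 for all genes.

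The chains of 1 molecule can also be compared within a library, where scaling and gene length cancel between libraries. *Col1a1* had 2.09 reads per read of *Col1a2* in WT (2.06 to 2.13), 1.04 in Cart-miR-23clus KO (1.01 to 1.07), 1.03 for miR-26a KO (1.01 to 1.06) and 1.39 with the mimic (1.36 to 1.42). The ratio in Cart-miR-23clus KO was 0.497 of that in WT (0.479 to 0.516), and that in miR-26a KO 0.494 (0.480 to 0.509). The knockouts did not differ from each other beyond counting error (1.01, 0.966 to 1.05), although *Col1a1* itself was 0.488 as high in Cart-miR-23clus KO as in miR-26a KO. The mimic library had a ratio 1.35 times that of miR-26a KO (1.30 to 1.39), still below WT. The intervals of these changes are Wald intervals on the log odds of the reads.

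The type V pair showed the same order of libraries with smaller differences. *Col5a1* had 0.979 reads per read of *Col5a2* in WT, 0.763 in Cart-miR-23clus KO, 0.705 for miR-26a KO and 0.899 with the mimic. Against WT the ratio was 0.779 (0.709 to 0.857) and 0.720 (0.663 to 0.781) in the knockouts, and the mimic library was 1.28 times the miR-26a KO library (1.18 to 1.38). The type VI pair *Col6a1* and *Col6a2* kept 0.675, 0.737, 0.785 and 0.722, with every interval of a change including 1, the widest from 0.960 to 1.41. *Col6a3* was different, with 3.40 reads per read of *Col6a1* in WT and 3.10 in Cart-miR-23clus KO, but 2.27 and 2.21 in the miR-26a KO and mimic libraries; for miR-26a KO this was 0.667 of WT (0.562 to 0.790). *Col3a1* had 0.0403 reads per read of *Col1a1* in WT and 0.114 in Cart-miR-23clus KO, 2.84 times as many (2.60 to 3.10). Per read of *Col1a2* the values were 0.0842 and 0.119, 1.41 times as many (1.29 to 1.54).

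**Figure D3:**
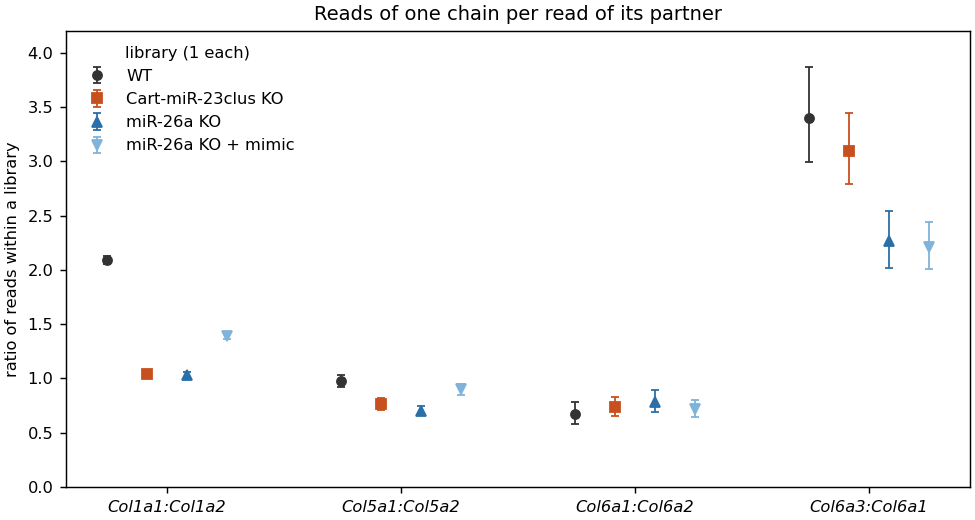
Reads of 1 collagen chain per read of its partner within each library, 1 point per library, with exact 95% intervals for counting error. The *Col1a1* to *Col1a2* ratio is 2.09 in WT and near 1.03 in both knockouts, whereas *Col6a1* to *Col6a2* stays between 0.675 and 0.785.

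Profiles over the 4 libraries were compared next. The distance between the centred log2 TPM profiles of 2 of the 9 members with at least 100 reads was smallest for *Col6a1* and *Col6a2* (0.155) and for *Col3a1* and *Col5a1* (0.206), and largest for *Col1a1* and *Col6a1* (2.13). Among all genes with at least 400 reads, the 5 nearest to *Col1a1* were *Ccn4* (distance 0.311), *Nrp2*, *Pth1r*, *Mme* and *Pdgfa* (0.405). *Ccn4* had 281, 69, 135 and 178 reads in the order WT, Cart-miR-23clus KO, miR-26a KO, mimic, and *Pth1r*, the receptor of parathyroid hormone, had 1637, 403, 704 and 1129. The nearest to *Col3a1* were *Cdkn1a* (0.0518), *Pycr1*, an enzyme of proline synthesis, *Cenpb*, *Pard3* and *Tent5a*. The nearest to *Col6a1* were *Trappc2l* (0.0871), *Col6a2*, *Vopp1*, *Efemp2* and *Ctsk*. The nearest to *Col12a1* were *Ccnd1* (0.0409), *S100a10*, *Itga11*, a collagen receptor subunit, *Papss1* and *Tmem45a*. For *Col14a1* the nearest genes, led by *Lyz2* (1.07), rest on its 1 to 5 reads. These are likenesses over 4 libraries and carry no test.

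The genes of collagen processing differed in direction. Of 23 tested in Cart-miR-23clus KO against WT, 3 were below 0.5, beside 2.49% of all genes, and 1 above 2, beside 2.81%, with a median ratio of 0.880. *Adamts2*, which removes the N-propeptide of procollagen, had 103 reads in WT and 21 in Cart-miR-23clus KO, a ratio of 0.224 (0.133 to 0.361). *Creb3l1*, a transcription factor of type I collagen in bone, had 753 and 225 reads (0.329), and *Bmp1*, the C-propeptidase, 51 and 22 (0.475). *Lox*, which cross-links fibrils, went the other way, with 1211 reads in WT, 4416 in Cart-miR-23clus KO, 4198 for miR-26a KO and 3620 with the mimic. Its ratio to WT was 4.01 (3.77 to 4.28) without the clusters and 3.81 without miR-26a. Its relative *Loxl3* had 1.91 and 1.77, and *Plod2*, a lysyl hydroxylase, 1.29 and 1.39. In miR-26a KO against WT, 1 of 23 was above 2, beside 2.43% of all genes, and 0 below 0.5, beside 1.44%. With the mimic against miR-26a KO no gene of the list passed the fold, beside 0.528% of all genes above 2 and 0.381% below 0.5. In Cart-miR-23clus KO against miR-26a KO 3 of 23 were below 0.5, beside 2.15% of all genes. Of these, *Creb3l1* (0.490, 0.416 to 0.576) and *Bmp1* (0.490, 0.280 to 0.833) sit at the limit, and by CPM, TMM factors or size factors 1 of 23 passed it, *Adamts2* (0.281).

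Of 13 fibril partners tested in Cart-miR-23clus KO against WT, none passed the fold, beside 2.49% of all genes below 0.5 and 2.81% above 2, and 9 were below 1, beside 52.1%, with a median ratio of 0.751. The lowest were *Fbn1* (0.583), *Lum* (0.596), a fibril-binding proteoglycan, and *Thbs1* (0.610), and the highest were *Fbln2* (1.93 from 12 and 21 reads), *Bgn* (1.20) and *Ogn* (1.19). In miR-26a KO against WT 1 of 13 was above 2, beside 2.43% of all genes, *Fbln2*, at 7.05. Among 14 other collagens, 5 could be tested. None of them passed the fold in Cart-miR-23clus KO against WT, beside 2.81% of all genes above 2 and 2.49% below 0.5. Their ratios were 1.60 for *Col4a2* and 1.50 for *Col4a1*, the basement membrane chains, 1.59 for *Col8a2*, 1.47 for *Col16a1* and 0.961 for *Col8a1*. The 9 chains with fewer reads were not tested. Of these, *Col5a3*, another type V chain, had 22 reads in WT, 3 in Cart-miR-23clus KO, 20 for miR-26a KO and 22 with the mimic (ratio of Cart-miR-23clus KO to WT 0.150, 0.0288 to 0.4997), and *Col22a1* had 34, 0, 4 and 3 reads; both were named after their values were seen. *Col8a1* had 102 reads in WT and 330 in miR-26a KO, a ratio of 3.55. It was the 1 of 5 above 2 there, beside 2.43% of all genes. The 7 cartilage collagen chains had a median of 0.946 in Cart-miR-23clus KO against WT, and 1 was below 0.5, beside 2.49% of all genes, *Col11a1* (0.466). *Col9a1* (0.620) and *Col2a1* (0.772) were the next lowest, and the 3 highest were *Col10a1* (1.55, 1.20 to 2.01), *Col9a2* (1.32, 1.18 to 1.48) and *Col9a3* (1.05). Their median was 0.736 in miR-26a KO against WT, where all 7 were below 1, beside 45.9% of all genes. Of the 7, 0 passed the fold, beside 2.43% of all genes above 2 and 1.44% below 0.5. *Col2a1*, the fibril of cartilage, had 35871, 25154, 25740 and 28039 reads, with ratios to WT of 0.772 and 0.788 in the knockouts.

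Markers of cell types also differed between the libraries. All 17 chondrocyte markers were detected in every library, with 4.08% of the reads in WT and 3.07% to 3.14% in the others. Their median ratio in Cart-miR-23clus KO against WT was 0.938, with 2 of 17 below 0.5, beside 2.49% of all genes, and 2 above 2, beside 2.81%. *Matn1* (0.402), *Col11a1* (0.466) and *Snorc* (0.527) were low and *Chad* (2.75), *Prg4* (2.16) and *Comp* (1.70) high. The median ratio of the 17 was 0.736 in miR-26a KO against WT, with 14 below 1, beside 45.9% of all genes. The 17 include the 7 cartilage collagen chains above, which are 7 of these 14, so both lists share genes. *Col11a2* is the median gene of both. *Matn1* (0.350) was the 1 below 0.5, beside 1.44% of all genes. *Chad* (6.18) and *Prg4* (3.36) were the 2 above 2, beside 2.43%. The osteoblast list of 13 genes held 0.908% of the reads in WT, 0.304% in Cart-miR-23clus KO, 0.548% for miR-26a KO and 0.599% with the mimic, the same order as *Col1a1*. This order rests on *Ibsp*, which held 10938 of the 13678 list reads in WT. In Cart-miR-23clus KO, *Spp1* held 2160 of the 4065 list reads. Of 8 osteoblast genes tested, 6 were below 0.5, beside 2.49% of all genes, and 1 above 2, beside 2.81%, in Cart-miR-23clus KO against WT, with a median ratio of 0.180.

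*Ibsp*, bone sialoprotein, had 10938 reads in WT and 1653 in Cart-miR-23clus KO, a ratio of 0.166 (0.158 to 0.175), with 5837 in miR-26a KO and 6393 with the mimic. *Tmem119* had 417 and 15 reads in WT and Cart-miR-23clus KO (0.0396), *Alpl*, alkaline phosphatase, 701 and 122 (0.192), and *Sp7*, a transcription factor that osteoblasts require, 161 and 49 (0.335). *Bglap* (0.169) and *Bglap2* (0.134) were low as well, but they are near-identical copies between which reads can be split. *Runx2* (47 and 33 reads, 0.773, 0.480 to 1.23) did not pass the fold, and *Spp1*, osteopontin, was higher (2.09, 1.94 to 2.24). In miR-26a KO against WT 1 of the 8 was below 0.5, beside 1.44% of all genes, *Tmem119* (0.203), with a median ratio of 0.636; with the mimic against miR-26a KO none passed the fold, beside 0.528% of all genes above 2 and 0.381% below 0.5, and all 8 were above 1, beside 49.6%. In Cart-miR-23clus KO against miR-26a KO 5 of the 8 were below 0.5, beside 2.15% of all genes, and 1 above 2, beside 1.83%, with a median ratio of 0.288. *Mepe*, an osteocyte gene, had no reads in any library. In bulk samples, fewer cells of a type and less RNA per cell cannot be told apart, and the part of the osteoblast genes in the type I collagen difference was not tested.

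**Figure D4:**
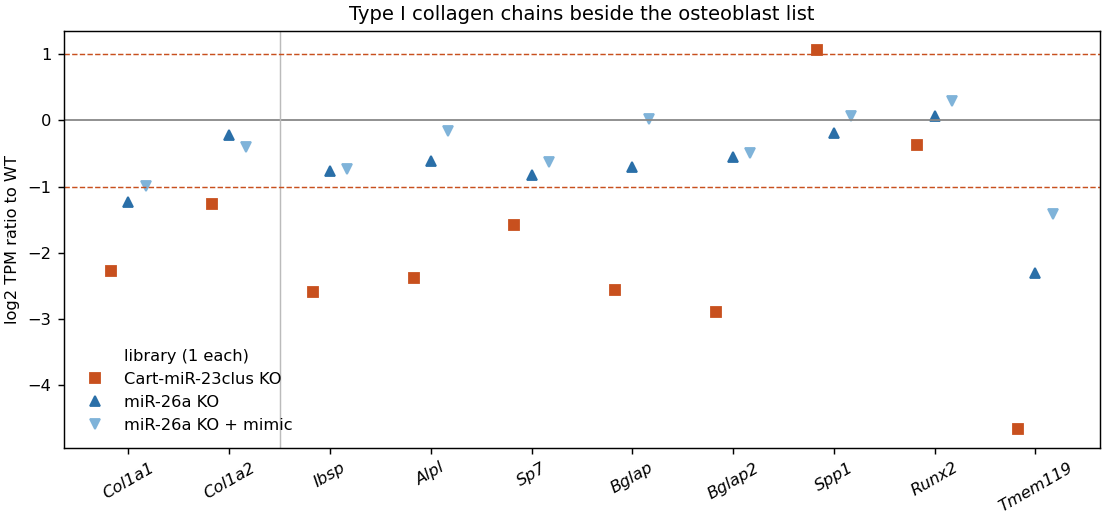
Log2 TPM ratio to WT of the 2 type I collagen chains, left of the vertical line, and of the 8 tested osteoblast genes in the other 3 libraries, 1 point per library; dashed lines mark ratios of 0.5 and 2. In Cart-miR-23clus KO both type I chains and 6 of the 8 genes lie below the lower line, with *Runx2* between the lines and *Spp1* above the upper one.

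Other lists moved with the libraries too. The 12 fibroblast and tendon genes held 0.0323% of reads in WT, 0.0435% in Cart-miR-23clus KO, 0.152% for miR-26a KO and 0.133% with the mimic, with *Pi16* at 0 in all 4. Most of the 2076 list reads in miR-26a KO were *S100a4* (1344) and *Thbs4* (435). In Cart-miR-23clus KO against WT the ratios of the 4 tested were 1.74 (*Thbs4*), 1.68 (*Scx*), 1.54 (*Ly6a*) and 1.24 (*S100a4*). In miR-26a KO against WT 3 of 4 tested were above 2, beside 2.43% of all genes, among them *Thbs4* (24 and 435 reads, 19.9) and *S100a4* (283 and 1344 reads, 5.22). The 5 smooth muscle and myofibroblast genes held 0.0220%, 0.0481%, 0.0222% and 0.0290%, mostly *Acta2* (ratio 2.04 in Cart-miR-23clus KO against WT), with *Myh11* at 0. The 5 macrophage genes held 0.0586%, 0.0672%, 0.0220% and 0.0388%. In Cart-miR-23clus KO against WT the 3 tested had ratios of 1.98 (*Csf1r*, 1.50 to 2.64), 1.31 (*Cd68*) and 0.979 (*Lyz2*); *Csf1r* passed the fold of 2 by CPM, TMM factors and size factors. In miR-26a KO against WT 1 of the 3 was below 0.5, beside 1.44% of all genes, *Lyz2* (0.342), with a median ratio of 0.541. In Cart-miR-23clus KO against miR-26a KO all 3 were above 2, beside 1.83%, with a median ratio of 2.86. The 4 endothelial markers had 1 read in the 3 counted libraries together, and 3 of the 4 were at 0 with the mimic, where *Kdr* had 0.166 TPM whose reads could not be recovered. Skeletal muscle markers had 4 to 13 reads per library. Their part in the collagen differences was not tested.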

How the data were processed

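QuantSeq 3′ mRNA libraries were read as single-end reads of 75 bases and mapped to mm10 without a quality filter by the authors. The aligner, counter and annotation are not given in the sources used here. The deposited estimated counts are whole reads per gene without normalization, for 3 libraries (all but the mimic); the deposited TPM values of all 4 libraries were made by the authors with 1 length per gene. Reads of the mimic library were recovered from the steps of its TPM values: all of 14250 tested values were whole within 0.02 reads (100%), and 588 genes, with 816.777 TPM in all, could not be recovered. Only values below a set number of reads were tested in this way. *Col1a1*, *Col1a2*, *Col3a1*, *Col5a1*, *Col5a2* and *Col6a3* lay above it, so this check does not cover their mimic reads. The authors' gene lengths were derived from reads and TPM, with 217 genes of 1 transcript as the constant (99.1% within 1%). In total 76.45% to 83.24% of the reads aligned in the 3 counted libraries.

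Groups came from the sample labels. For 4 comparisons, ratios of TPM were taken between libraries, without a test, over genes with at least 100 reads summed over the 4 libraries, and counted above 2 and below 0.5. The members and lists were chosen with earlier results of these data known. Named were all members, the 5 genes nearest to each of 5 members, and per list the 3 highest and 3 lowest ratios in Cart-miR-23clus KO against WT; all 8 tested osteoblast genes were named as defining markers, and cell type markers are otherwise given as counts and summed reads, where the mimic sums leave out genes whose reads were not recovered. The read counts of the lists are those of genes found in the files. Alternatives were CPM, TMM factors (edgeR 4.0.16), size factors (DESeq2 1.42.0), other folds, filters and interval levels, and sums without type I collagen. The interval method was tested on simulated data. Python 3.11.15, scipy 1.17.1 and R 4.3.3 were used. Sequences came from GENCODE transcripts and RefSeq tables on GRCm38. 3′ UTRs under 50 bases were not searched.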

Additional observations from a re-analysis of the deposited data

How the results depend on the processing

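The summed members gave 0.341 in Cart-miR-23clus KO against WT, 0.624 in miR-26a KO against WT, 1.05 with the mimic against miR-26a KO and 0.546 in Cart-miR-23clus KO against miR-26a KO. Without both type I chains the values were 0.782, 1.01 (0.983 to 1.04), 1.11 and 0.772, and without *Col1a1* alone, chosen after seeing the data, 0.532, 0.908, 0.963 and 0.586. Without type I collagen, the interval in miR-26a KO against WT thus included 1, and with the mimic the value was below 1 without *Col1a1*; both sums hold fewer genes by construction. Scaling moved them little, to 0.349 by CPM and 0.346 by size factors in Cart-miR-23clus KO against WT, 0.607 by TMM and 0.610 by size factors in miR-26a KO against WT, and 0.558, 0.568 and 0.567 by CPM, TMM and size factors between the knockouts.

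Members past a fold of 1.5 numbered 7 in Cart-miR-23clus KO against WT (18.9% of all genes), 1 in miR-26a KO against WT (14.5%), 0 with the mimic (7.12%) and 6 between the knockouts (14.6%), where past a fold of 2 there were 3, 1, 0 and 3; between the knockouts the count was 0 by TMM and 0 by size factors. Of the 36 member ratios, 6 had a 95% interval that included 1, and 8 had such a 99% interval. Those added at 99% were *Col5a2* with the mimic against miR-26a KO and *Col6a2* between the knockouts. No match of 8 bases was found for miR-23 (0), miR-27 (0) or miR-24 (0). The share of all genes past 2-fold depended on the read minimum: at 20, 100 and 400 reads it was 12.8%, 5.31% and 3.60% in Cart-miR-23clus KO against WT, 10.9%, 3.87% and 2.29% in miR-26a KO against WT, 6.82%, 0.909% and 0.0409% with the mimic, and 11.2%, 3.99% and 1.92% between the knockouts. The cause was not tested for these shifts. No paired analysis was possible because each group has 1 library.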
